A study of Homo sapiens with 12 samples.

Results

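The genes described here were 40 genes of mitosis and chromosome segregation, taken as a named list and found by their Ensembl identifiers, so that 40 of the 61541 gene identifiers in the tables were followed. Poly(A) RNA was sequenced in 12 libraries from IMR90, an established human fibroblast line of fetal lung. All groups had been exposed for 24 h to doxorubicin, an anthracycline that poisons topoisomerase II and breaks DNA, and were then kept in culture for at least 8 days. The 4 groups of 3 libraries were cells on a 2 kPa gel at 250 nM, cells on plastic at 250 nM, cells on the same gel at 100 nM and cells on plastic at 100 nM. Doses carry the unit nM in the sample titles but µM in the protocol for treatment, and the soft substrate is called a hydrogel in one label and PDMS-coated plates in another. The wording of the titles is kept. No untreated, cycling library was among the 12, so the levels below compare substrates and doses within doxorubicin-treated cells of 1 line. The labels do not say whether replicates were separate cultures, and p-values then measure the spread between these samples, which may be technical.

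Mitosis is driven by CDK1 bound to cyclins A and B, which set off spindle assembly, chromosome condensation and the attachment of kinetochores to microtubules, until the anaphase-promoting complex loaded with CDC20 destroys the cyclins. Transcripts of these genes are made late in the cell cycle, when FOXM1 and B-MYB (the product of MYBL2) act with the MuvB core. In resting or senescent cells they are shut off when MuvB joins p130 and E2F4 in the DREAM complex, a switch that p53 throws through the CDK inhibitor CDKN1A. MuvB reads a short element, the CHR, in the promoters of many of them, often beside CCAAT boxes.

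The promoters are shown first because this element is what many of the 40 genes have in common. RefSeq promoter windows on GRCh38.p14, from 250 bases before to 50 bases after the start site, were found for 33 of the 40 genes. The letters TTTGAA or TTCGAA, read on both strands, were present in 25 of these 33 windows (75.8%), against 19.5% of the windows of 27305 genes. CCAAT, also on both strands, was present in 23 of 33 (69.7%), against 39.7% of all genes, and both motifs were present in 18 of 33 (54.5%), against 7.85%. A match of letters is a description of the window and not a bound site. The lines below give 30 bases around the match nearest to the start site, 5′ to 3′ on the strand of the gene,. They show the gene of highest mean CPM in each role among those whose 30 bases end before the start. MYBL2, the one transcription factor with a window, had no such match. The capitals mark the match, which reads TTCAAA where it lies on the other strand.
CDK1, chr10:60778397-60778426, plus strand: ctgattggctgcTTTGAAagtctacgggct
PLK1, chr16:23678848-23678877, plus strand: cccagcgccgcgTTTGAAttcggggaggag
BUB1B, chr15:40161034-40161063, plus strand: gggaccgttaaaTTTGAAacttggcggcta
ASPM, chr1:197146765-197146794, minus strand: cggatgcaatcaTTCAAAtgaagcgccgcc
TOP2A, chr17:40418030-40418059, minus strand: ctgattggtttaTTCAAAcaaaccccggcc
ECT2, chr3:172750599-172750628, plus strand: tcgttgggcttaTTTGAAacacacgcacaa
CDC20, chr1:43358904-43358933, plus strand: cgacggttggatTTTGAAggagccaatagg

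Levels are given as CPM, expected counts scaled to a common library size with TMM factors, in the order of replicates 1, 2 and 3. Library totals ran from 2229069 to 2730309 expected counts at 250 nM and from 5887056 to 7351916 at 100 nM, so 3 counts were worth 0.991 to 1.46 CPM at 250 nM and 0.400 to 0.544 CPM at 100 nM. Dose goes together with the library set, since molecular identifiers are mentioned in file names at 250 nM and not at 100 nM, and the effects of dose and of library set cannot be told apart. Counts at 3 ribosomal DNA loci made up 24.2 to 30.7% of the total in 10 libraries, but 13.2% in replicate 1 on gel at 250 nM and 14.3% in replicate 1 on plastic at 100 nM. Replicate 1 on gel at 250 nM also resembled its group least, with a mean correlation of log2 CPM of 0.845 with its 2 partners against 0.895 to 0.958 in the other 11 libraries. All 12 fibroblast markers passed the filter on low counts, led by FN1 at a mean of 6852 CPM, and PTPRC, the defining leukocyte marker, averaged 0.305 CPM. None of 8 leukocyte markers, 1 of 8 endothelial and 4 of 10 epithelial markers passed; EPCAM averaged 0.693 CPM, while the keratin gene KRT18 averaged 72.9 CPM and TEK 20.9 CPM.

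All 40 genes were detected, and all 40 passed the filter that left 12329 genes for testing, but 8 of them had no count in at least 1 library. Their summed level was 417, 319 and 324 CPM on gel and 1107, 491 and 377 CPM on plastic at 250 nM, against 1814, 1219 and 766 CPM on gel and 1520, 2267 and 2624 CPM on plastic at 100 nM. Replicates 2 and 3 on gel at 250 nM held the least of these transcripts, replicate 1 of that group lay above replicate 3 on plastic at 250 nM, and 2 of the plastic libraries at 100 nM held the most. On each substrate the sums at 250 nM lay below those at 100 nM, while 1 plastic library at 250 nM stood above the lowest gel library at 100 nM. In means, the sum came to 353.0 ± 55.3 CPM on gel and 658 ± 393 CPM on plastic at 250 nM, and to 1266 ± 526 CPM on gel and 2137 ± 563 CPM on plastic at 100 nM (SD, n = 3 each). In bulk RNA of this kind, fewer cells in mitosis and less of each transcript per cell cannot be told apart. Per transcript length, the most abundant were TOP2A at 149 TPM over the 12 libraries, SMC4 at 139 TPM, SMC2 at 57.2 TPM, PRC1 at 47.5 TPM and UBE2C at 39.3 TPM, and the least abundant were MYBL2 at 1.11 TPM and CDC25C at 1.05 TPM.

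**Figure D1:**
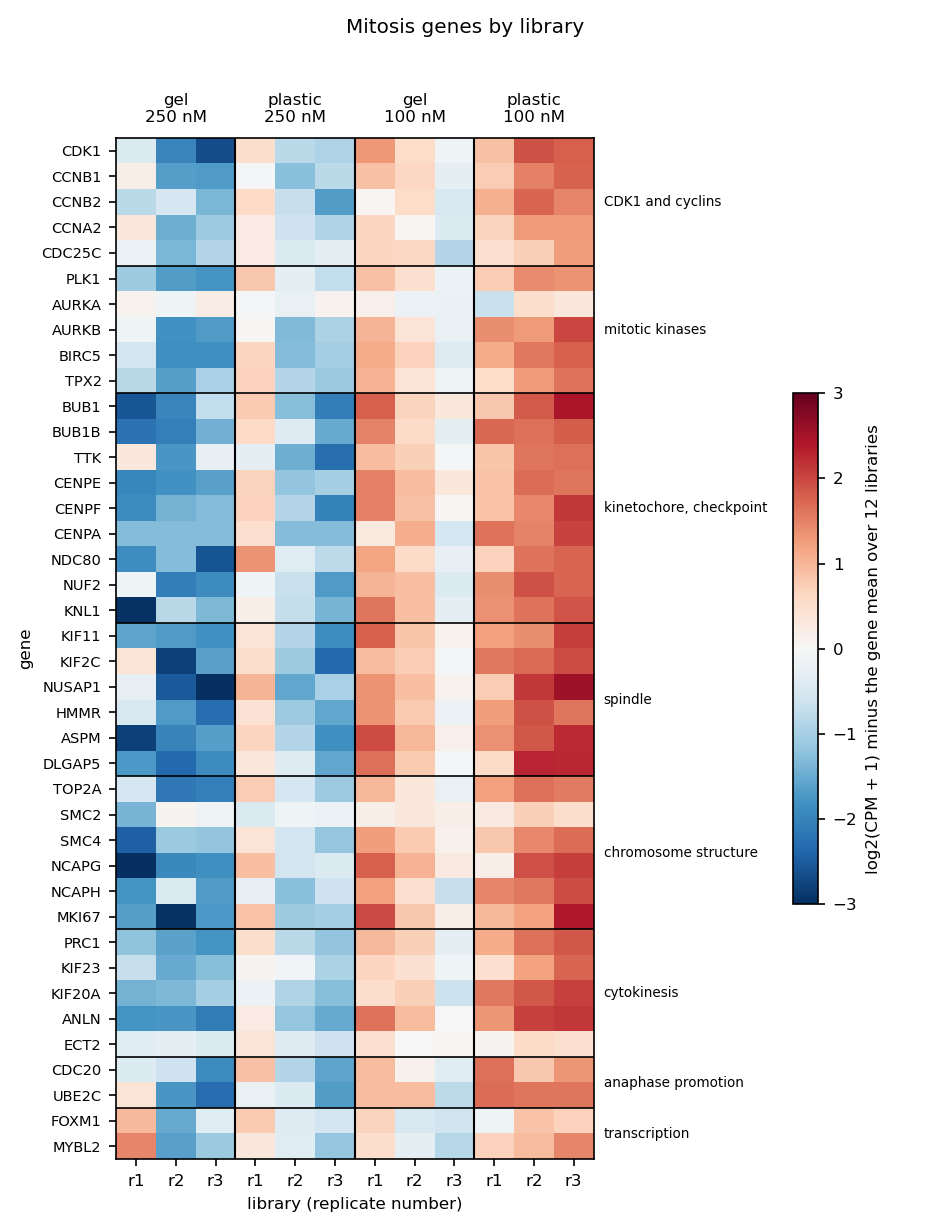
Levels of the 40 genes (rows, grouped by role) in the 12 libraries (columns, r1 to r3 in each group), as log2(CPM + 1) minus the mean of the gene over all libraries, with colours ending at -3 and 3. Most rows run in step down the columns, with replicate 1 on plastic at 250 nM and replicate 1 on gel at 100 nM high within their groups, while AURKA and ECT2 vary less and SMC2 is lowest in replicate 1 on gel at 250 nM.

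The question posed by the title of the study was what differs between a soft and a stiff substrate in these cells. At 250 nM, 35 of the 40 fitted log2 changes of gel against plastic were below 0 (51.9% of all tested genes were). Their median was -1.08, or -1.07 with CENPA set to its bound, against -0.02 over all genes. None of the 40 passed the test (0.00811% of genes were called). The 3 gel libraries lay below the 3 plastic libraries without overlap in 8 of 40 genes, against 7.62% of all genes. At an unadjusted p under 0.05 edgeR picked 13 of the 40 (10.0% of all genes). DESeq2, with its own adjustment, called 2 of the 40, and 93 over all genes. The median rested on replicate 1 on plastic, without which it was -0.20.

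At 100 nM all 40 changes of gel against plastic were below 0 (51.1% of all genes), with a median of -0.90 against -0.01 over all genes, and none was called (0.227% of genes). The values ran from -1.67 for KIF20A to -0.20 for ECT2. Gel lay below plastic without overlap in 14 of 40 genes, against 9.38% of all genes. Unadjusted p-values under 0.05 numbered 9 (9.9% of all genes). DESeq2 called 1 of the 40, and 158 over all genes. With limma on log2(TPM + 1), 0 of the 40 were called, and 7 over all genes.

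Over both doses together, 39 of 40 changes of gel against plastic were below 0 (50.7% of all genes), with a median of -1.03, and none was called by edgeR (0.754% of genes). Without replicate 1 on plastic at 250 nM this median was -0.59. There were 23 unadjusted p-values under 0.05 (12.5% of all genes). DESeq2 called 8 of the 40, and 385 over all genes. The difference of the gel effect between the doses was not called for any of the 40 or for any other gene (0% of genes by edgeR). For this difference 1 of the 40, NCAPG, had an unadjusted p under 0.05 (6.32% of all genes). DESeq2 called 0 of the 40, and 0 over all genes.

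The 250 nM libraries held less of these transcripts on both substrates. On gel, 23 of the 40 genes were called lower at 250 than at 100 nM (6.9% of all genes were called lower) and none was called higher (6.91%). On gel 37 changes were below 0 (51.0% of all genes), with a median of -2.12 against -0.02 over all genes. On plastic, 20 were called lower (4.48% of all genes) and none higher (4.04%). All 40 changes on plastic were below 0 (52.0% of all genes), with a median of -1.93 against -0.03 over all genes. The groups separated, 250 nM below 100 nM, in 28 of 40 genes on gel and in 31 of 40 on plastic, against 19.3% of all genes in each. Both substrates called 14 of the genes, gel alone 9 and plastic alone 6, and 11 were called on neither. This overlap was not counted over all genes. All these differences run between 2 library sets.

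Depth bears on these counts, since a gene can pass the filter through its level at 100 nM alone. Within the 6 libraries at 250 nM, 22 of the 40 genes would pass, and of these 13 were called lower on gel (59.1%, against 6.93% of the 9803 genes that pass there) and 11 on plastic (50%, against 4.37%). The count of the 40 on gel fell to 10 without replicate 1 and to 14 without replicate 2 on gel at 100 nM. It fell to 15 without replicate 2 and to 15 without replicate 3 on gel at 250 nM. In the same fits, calls over all genes on gel went from 1703 to 676, 793, 1573 and 1248. On plastic, the count of the 40 fell to 1 without replicate 2 and to 1 without replicate 3 at 250 nM. It fell to 3 without replicate 2 and to 5 without replicate 3 at 100 nM. It rose to 33 without replicate 1 at 250 nM and to 31 without replicate 1 on gel at 250 nM. In the same order, calls over all genes on plastic went from 1050 to 95, 102, 480, 685, 841 and 2202. The call on gel was kept by 10 genes whichever of the 12 libraries was left out, namely BUB1B, CENPE, KIF11, ASPM, DLGAP5, SMC4, NCAPG, MKI67, PRC1 and ANLN. On plastic it was kept by 1, KIF20A. How many of all tested genes kept their calls in this way was not counted, so these counts have no share beside them.

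**Figure D2:**
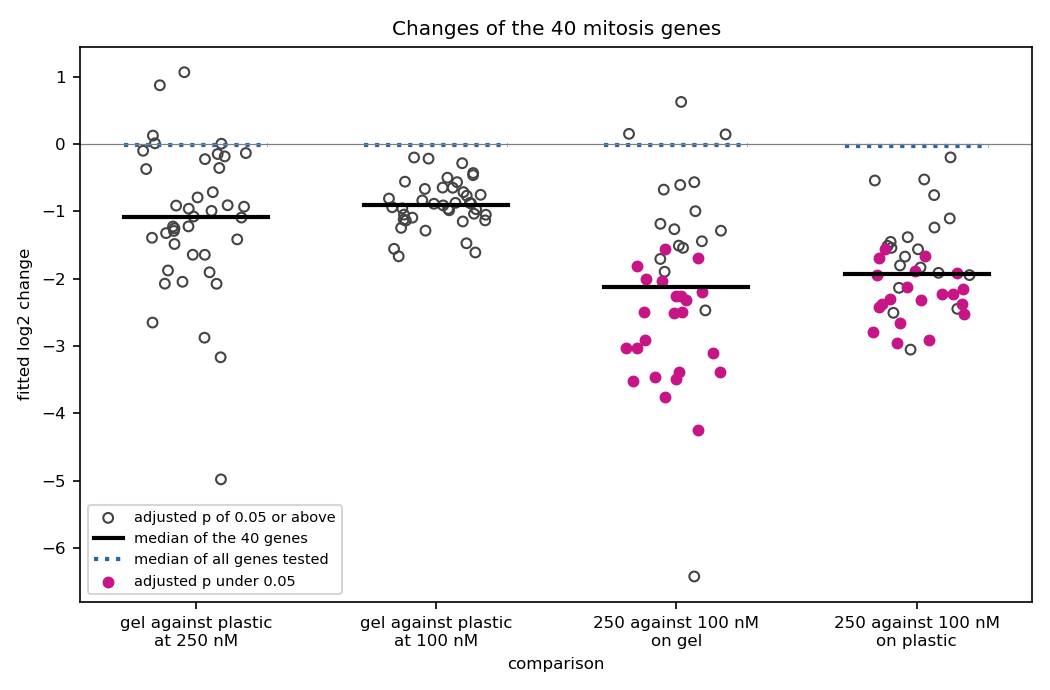
Fitted log2 changes of the 40 genes (1 point each) in 4 comparisons, filled where edgeR's adjusted p was under 0.05, with the median of the 40 as a solid line and that of all 12329 tested genes as a dotted line. The medians of the 40 lie at -1.08 (gel against plastic, 250 nM), -0.90 (gel against plastic, 100 nM), -2.12 (250 against 100 nM, gel) and -1.93 (250 against 100 nM, plastic), and filled points appear in the 2 dose comparisons; the lowest points of the first and the third column are CENPA, which had no count on gel at 250 nM, so that its fitted value is no estimate of size.

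Of the 5 genes for CDK1, its cyclins and its activating phosphatase, 1 was called lower at 250 nM on gel (6.9% of all genes) and 2 on plastic (4.48%). CDK1, the kinase that drives entry into mitosis, had 7.601, 1.94 and 0.843 CPM on gel and 15.7, 5.63 and 5.11 CPM on plastic at 250 nM. At 100 nM CDK1 had 27.9, 16.1 and 9.696 CPM on gel and 20.4, 42.6 and 39.7 CPM on plastic. The 250 nM libraries lay below the 100 nM libraries on each substrate. CDK1 fell on gel, with a log2 change for 250 against 100 nM of -2.26 ± 0.64 (SE, edgeR adjusted p = 0.0339), and on plastic the change was -1.95 ± 0.58 (SE, edgeR adjusted p = 0.0542), which missed the threshold. CCNB1, cyclin B1, had 18.5, 4.37 and 4.21 CPM on gel and 15.3, 6.102 and 8.64 CPM on plastic at 250 nM. At 100 nM CCNB1 had 30.3, 24.9 and 12.8 CPM on gel and 27.5, 47.4 and 57 CPM on plastic. Replicate 1 on gel at 250 nM was high and overlapped the 100 nM libraries on gel, while on plastic the doses did not overlap. CCNB1 fell on plastic, with a change of -2.12 ± 0.53 (SE, edgeR adjusted p = 0.028), and its change on gel was -1.27 ± 0.53 (SE, edgeR adjusted p = 0.1204). Its change for gel against plastic was -0.10 ± 0.57 (SE, edgeR adjusted p = 0.972) at 250 nM and -0.96 ± 0.48 (SE, edgeR adjusted p = 0.533) at 100 nM.

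CCNA2, cyclin A2, which acts in S phase and early mitosis, had 20.8, 5.34 and 7.16 CPM on gel and 19.5, 10.3 and 8.25 CPM on plastic at 250 nM. At 100 nM CCNA2 had 26.1, 17.1 and 11.98 CPM on gel and 26.7, 41.04 and 41.2 CPM on plastic. Gel lay below plastic at 100 nM without overlap, and at 250 nM the substrates overlapped. None of its changes passed. Setting 250 against 100 nM gave changes of -0.68 ± 0.47 (SE, edgeR adjusted p = 0.339) on gel and -1.51 ± 0.46 (SE, edgeR adjusted p = 0.0589) on plastic. Between substrates, the CCNA2 change of gel against plastic was -0.15 ± 0.49 (SE, edgeR adjusted p = 0.947) at 250 nM and -0.98 ± 0.43 (SE, edgeR adjusted p = 0.479) at 100 nM. CCNB2, cyclin B2, had 2.97, 3.88 and 1.69 CPM on gel and 9.52, 3.29 and 1.18 CPM on plastic at 250 nM. At 100 nM CCNB2 had 6.17, 9.21 and 3.99 CPM on gel and 13.6, 22.3 and 18.2 CPM on plastic. The doses did not overlap on either substrate, and gel lay wholly below plastic at 100 nM. CCNB2 was lower at 250 than at 100 nM on plastic, with a change of -1.95 ± 0.54 (SE, edgeR adjusted p = 0.0428). Its change on gel was -1.19 ± 0.59 (SE, edgeR adjusted p = 0.185). CDC25C, the phosphatase that switches CDK1 on, was the least abundant of the 5 and was called in neither dose comparison.

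Of the mitotic kinases and their partners, 3 of 5 were called lower at 250 nM on gel (6.9% of all genes) and 2 of 5 on plastic (4.48%). AURKA, the kinase of centrosomes and spindle poles, had 30.7, 26.2 and 33.3 CPM on gel and 27.3, 24.4 and 31.02 CPM on plastic at 250 nM. At 100 nM AURKA had 31.9, 25.02 and 24.95 CPM on gel and 17.5, 41.7 and 36.1 CPM on plastic. Its groups overlapped in every comparison, and its changes were the smallest of the 5 genes. The AURKA change for 250 against 100 nM was 0.14 ± 0.28 (SE, edgeR adjusted p = 0.767) on gel and -0.20 ± 0.29 (SE, edgeR adjusted p = 0.709) on plastic. Gel against plastic gave AURKA a change of 0.13 ± 0.29 (SE, edgeR adjusted p = 0.924) at 250 nM and -0.22 ± 0.28 (SE, edgeR adjusted p = 0.854) at 100 nM. TPX2, which carries Aurora A to spindle microtubules and activates it, had 13.6, 7.28 and 12.2 CPM on gel and 40.97, 13.1 and 11 CPM on plastic at 250 nM. At 100 nM TPX2 had 52.4, 33.8 and 22.96 CPM on gel and 37.2, 61.8 and 79.96 CPM on plastic. All gel libraries at 250 nM lay below those at 100 nM, while on plastic replicate 1 at 250 nM reached into the 100 nM range. TPX2 fell on gel, with a change of -1.70 ± 0.49 (SE, edgeR adjusted p = 0.0354), and the change on plastic was -1.45 ± 0.47 (SE, edgeR adjusted p = 0.0671). Between substrates, gel against plastic, it was -0.96 ± 0.51 (SE, edgeR adjusted p = 0.557) at 250 nM and -0.71 ± 0.44 (SE, edgeR adjusted p = 0.628) at 100 nM.

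AURKB and BIRC5 encode Aurora B and survivin of the chromosomal passenger complex, which corrects faulty kinetochore attachments. AURKB had 13.2, 3.399 and 3.79 CPM on gel and 14.9, 5.16 and 7.07 CPM on plastic at 250 nM, against 30.5, 19.7 and 12.3 CPM on gel and 39.5, 36.4 and 60.96 CPM on plastic at 100 nM. BIRC5 had 8.59, 2.91 and 2.95 CPM on gel and 21.1, 4.69 and 5.89 CPM on plastic at 250 nM, against 29.4, 21.6 and 9.696 CPM on gel and 29.6, 40.9 and 47.97 CPM on plastic at 100 nM. In both genes gel lay wholly below plastic at 100 nM, and the doses overlapped only for AURKB on gel. AURKB was lower at 250 than at 100 nM on plastic, with a change of -2.32 ± 0.50 (SE, edgeR adjusted p = 0.0158). Its change on gel was -1.54 ± 0.51 (SE, edgeR adjusted p = 0.0598). BIRC5 fell on both, with -1.999 ± 0.59 (SE, edgeR adjusted p = 0.03796) on gel and -1.89 ± 0.54 (SE, edgeR adjusted p = 0.04703) on plastic. PLK1, the Polo kinase that acts from centrosome maturation to cytokinesis, had 1.98, 0.971 and 0.843 CPM on gel and 9.93, 4.23 and 2.75 CPM on plastic at 250 nM. At 100 nM PLK1 had 10.5, 7.84 and 4.56 CPM on gel and 9.61, 15.6 and 14.9 CPM on plastic. The gel libraries at 250 nM were the 3 lowest of the 12. PLK1 fell on gel, with a change of -2.51 ± 0.58 (SE, edgeR adjusted p = 0.0155), and its change on plastic, where replicate 1 at 250 nM was high, was -1.24 ± 0.47 (SE, edgeR adjusted p = 0.115). Its gel libraries at 250 nM held 6, 2 and 2 counts, so the size of the fall on gel is poorly fixed.

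The 9 kinetochore and checkpoint genes had a median change for dose on gel of -3.03 on the log2 scale. That median takes in the fitted value of CENPA, which had no count on gel at 250 nM. With CENPA at its bound of -2.56 the median is less negative. The rank of this role against the spindle genes, at -2.93, is therefore not fixed. Of the 9, 6 were called lower on gel (6.9% of all genes) and 5 on plastic (4.48%). CENPF, a large protein of the outer kinetochore, had 17.2, 24.3 and 26.1 CPM on gel and 107, 35.2 and 15.3 CPM on plastic at 250 nM. At 100 nM CENPF had 189, 122 and 68.01 CPM on gel and 120.2, 181 and 292 CPM on plastic. Every gel library at 250 nM lay below every other library but 1, replicate 3 on plastic at 250 nM. CENPF fell on gel, with a change of -2.49 ± 0.59 (SE, edgeR adjusted p = 0.0169), and on plastic it missed the threshold by little, at -1.91 ± 0.56 (SE, edgeR adjusted p = 0.05002). The CENPF change for gel against plastic was -1.23 ± 0.59 (SE, edgeR adjusted p = 0.511) at 250 nM and -0.65 ± 0.53 (SE, edgeR adjusted p = 0.741) at 100 nM. CENPE, the kinesin that carries chromosomes towards the spindle equator, had 9.25, 10.2 and 11.8 CPM on gel and 62.1, 16.4 and 18.9 CPM on plastic at 250 nM. At 100 nM CENPE had 113, 73.8 and 48.3 CPM on gel and 70.99, 126 and 119 CPM on plastic. All 3 gel libraries at 250 nM lay below the other 9. CENPE was lower at 250 than at 100 nM on both, with -2.91 ± 0.49 (SE, edgeR adjusted p = 0.00506) on gel and -1.70 ± 0.44 (SE, edgeR adjusted p = 0.0334) on plastic. Gel against plastic gave -1.65 ± 0.50 (SE, edgeR adjusted p = 0.298) at 250 nM, with no overlap, and -0.43 ± 0.42 (SE, edgeR adjusted p = 0.793) at 100 nM.

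The checkpoint that holds back anaphase until every chromosome is attached is run by the kinases TTK and BUB1 and by BUB1B, which inhibits CDC20. BUB1B had 0.331, 0.486 and 1.26 CPM on gel and 8.28, 3.76 and 1.18 CPM on plastic at 250 nM. At 100 nM BUB1B had 16.3, 8.11 and 4.14 CPM on gel and 19.5, 18.4 and 20.9 CPM on plastic. The doses did not overlap on either substrate, nor did the substrates at 100 nM. BUB1B fell on both substrates, with -3.75 ± 0.77 (SE, edgeR adjusted p = 0.00969) on gel and -2.15 ± 0.57 (SE, edgeR adjusted p = 0.0349) on plastic. Its gel libraries at 250 nM held 1, 1 and 3 counts, so the size of the fall on gel is poorly fixed. BUB1 had 0, 0.486 and 2.53 CPM on gel and 9.104, 1.41 and 0.393 CPM on plastic at 250 nM. At 100 nM BUB1 had 19.2, 8.39 and 6.27 CPM on gel and 9.34, 19.98 and 31.03 CPM on plastic. The doses did not overlap, but the lowest values came from under 3 counts, so sizes are poorly fixed. BUB1 fell on gel, with a change of -3.52 ± 1.02 (SE, edgeR adjusted p = 0.0361), and its change on plastic was -2.45 ± 0.82 (SE, edgeR adjusted p = 0.0787). TTK had 7.27, 0.971 and 4.64 CPM on gel and 4.55, 1.41 and 0.393 CPM on plastic at 250 nM. At 100 nM TTK had 11.6, 9.898 and 5.42 CPM on gel and 10.8, 19.2 and 19.8 CPM on plastic. The doses separated on plastic, while replicate 1 on gel at 250 nM reached into the 100 nM range. TTK fell on plastic, with a change of -2.95 ± 0.67 (SE, edgeR adjusted p = 0.0187), and on gel the change was -0.998 ± 0.60 (SE, edgeR adjusted p = 0.275). Its plastic libraries at 250 nM held 11, 3 and 1 counts, so the size of the fall on plastic is poorly fixed.

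NDC80 and NUF2 form the rod that grips microtubules, and KNL1 is the scaffold on which the checkpoint proteins sit. NDC80 had 1.32, 2.43 and 0.421 CPM on gel and 20.7, 5.63 and 3.93 CPM on plastic at 250 nM. At 100 nM NDC80 had 18.1, 11.6 and 6.13 CPM on gel and 12.7, 25.2 and 27.6 CPM on plastic. The gel libraries at 250 nM lay below all others, while replicate 1 on plastic at 250 nM was within the 100 nM range. NDC80 fell on gel, with a change of -3.11 ± 0.75 (SE, edgeR adjusted p = 0.0183), and on plastic the change was -1.11 ± 0.57 (SE, edgeR adjusted p = 0.239). Its gel libraries at 250 nM held 4, 5 and 1 counts, so the size of the fall on gel is poorly fixed. NUF2 had 6.61, 0.971 and 1.26 CPM on gel and 6.62, 4.23 and 1.57 CPM on plastic at 250 nM. At 100 nM NUF2 had 15.96, 14.6 and 5.28 CPM on gel and 20.95, 30.5 and 27.1 CPM on plastic. The doses separated on plastic and overlapped on gel. NUF2 fell on plastic, with a change of -2.66 ± 0.60 (SE, edgeR adjusted p = 0.0185), and its change on gel was -1.90 ± 0.62 (SE, edgeR adjusted p = 0.0563). KNL1 had 0, 3.399 and 2.11 CPM on gel and 7.86, 3.76 and 1.96 CPM on plastic at 250 nM. At 100 nM KNL1 had 22.9, 13.8 and 5.42 CPM on gel and 19.2, 23.4 and 28.02 CPM on plastic. The doses did not overlap on either substrate. KNL1 fell on both, with -3.04 ± 0.75 (SE, edgeR adjusted p = 0.0199) on gel and -2.37 ± 0.65 (SE, edgeR adjusted p = 0.0388) on plastic. Its gel libraries at 250 nM held 0, 7 and 5 counts, so the same limit applies. CENPA, the histone variant that marks the centromere, had 0, 0 and 0 CPM on gel and 2.48, 0 and 0 CPM on plastic at 250 nM, against 1.996, 4.26 and 0.713 CPM on gel and 6.67, 5.89 and 9.03 CPM on plastic at 100 nM. With no count in the 3 gel libraries at 250 nM, it was at least 5.9-fold lower there than on gel at 100 nM and at least 2.1-fold lower than on plastic at 250 nM, taking 3 counts over the group as the limit, and neither difference was called. The second limit rests on replicate 1 on plastic, which held all 6 counts of that group, and without it no limit can be given.

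Among the 6 spindle genes, 4 were called lower on gel (6.9% of all genes) and 4 on plastic (4.48%) at 250 nM. ASPM, which focuses spindle poles and is mutated in a form of microcephaly, had 4.63, 8.74 and 11.4 CPM on gel and 59.6, 20.2 and 9.82 CPM on plastic at 250 nM. At 100 nM ASPM had 150.2, 76.3 and 42.5 CPM on gel and 99.2, 139.9 and 183 CPM on plastic. The gel libraries at 250 nM lay below all libraries at 100 nM, and the highest of them overlapped the lowest plastic library at 250 nM. ASPM fell on both, with -3.46 ± 0.63 (SE, edgeR adjusted p = 0.00684) on gel and -2.23 ± 0.57 (SE, edgeR adjusted p = 0.0297) on plastic. Gel against plastic gave a change of -1.88 ± 0.64 (SE, edgeR adjusted p = 0.334) at 250 nM and -0.65 ± 0.52 (SE, edgeR adjusted p = 0.735) at 100 nM. NUSAP1, a microtubule bundler of the central spindle, had 8.59, 0.971 and 0 CPM on gel and 21.9, 2.82 and 4.71 CPM on plastic at 250 nM. At 100 nM NUSAP1 had 27.8, 20.2 and 11.1 CPM on gel and 18.3, 48.2 and 64.6 CPM on plastic. Replicate 1 was far above its partners in both groups at 250 nM. None of its changes passed, at -2.47 ± 0.89 (SE, edgeR adjusted p = 0.0775) for 250 against 100 nM on gel and -2.14 ± 0.79 (SE, edgeR adjusted p = 0.105) on plastic. The NUSAP1 change for gel against plastic was -1.49 ± 0.95 (SE, edgeR adjusted p = 0.638) at 250 nM and -1.15 ± 0.72 (SE, edgeR adjusted p = 0.634) at 100 nM.

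KIF11, the motor that pushes the spindle poles apart, had 1.65, 1.46 and 1.26 CPM on gel and 9.52, 3.29 and 1.18 CPM on plastic at 250 nM, against 26.7, 13.2 and 7.56 CPM on gel and 17.5, 19.8 and 32.3 CPM on plastic at 100 nM. DLGAP5, which stabilises kinetochore fibres, had 1.98, 0.971 and 1.69 CPM on gel and 11.6, 6.57 and 2.36 CPM on plastic at 250 nM, against 30.3, 16.1 and 8.698 CPM on gel and 13.6, 47.1 and 46.4 CPM on plastic at 100 nM. HMMR, a hyaluronan receptor that also sits on the spindle, had 6.94, 2.43 and 1.26 CPM on gel and 14.1, 4.23 and 2.75 CPM on plastic at 250 nM, against 27.2, 18.01 and 8.84 CPM on gel and 25.5, 40.6 and 32.8 CPM on plastic at 100 nM. In all 3 genes the 250 nM libraries lay below the 100 nM libraries on each substrate. KIF11 fell on both, with log2 changes of -3.40 ± 0.69 (SE, edgeR adjusted p = 0.0092) on gel and -2.31 ± 0.58 (SE, edgeR adjusted p = 0.02903) on plastic. DLGAP5 fell likewise, with -3.50 ± 0.73 (SE, edgeR adjusted p = 0.0103) on gel and -2.38 ± 0.59 (SE, edgeR adjusted p = 0.0279) on plastic. On gel at 250 nM KIF11 held 5, 3 and 3 counts and DLGAP5 6, 2 and 4, so the sizes on gel are poorly fixed. HMMR fell too, with -2.26 ± 0.63 (SE, edgeR adjusted p = 0.031) on gel and -2.22 ± 0.58 (SE, edgeR adjusted p = 0.0332) on plastic. KIF2C, a kinesin that takes microtubules apart at centromeres, was called in neither.

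**Figure D3:**
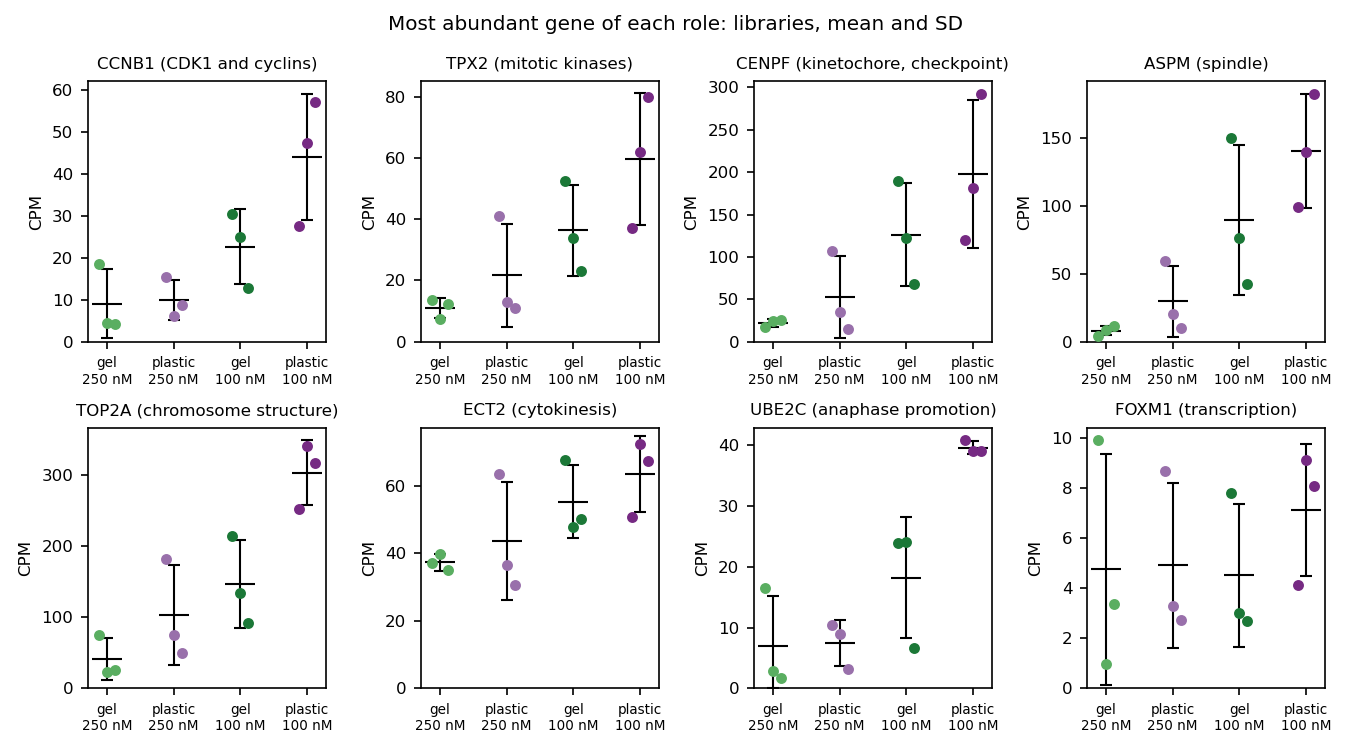
CPM of the gene with the highest mean in each role, on linear axes from 0, with 1 point per library and the mean and SD of 3 as bars (cut at 0). In CENPF and ASPM the gel libraries at 250 nM cluster near the bottom of the scale, in UBE2C the 3 plastic libraries at 100 nM stand close together at 39.03 to 40.83 CPM, and in FOXM1 all groups overlap.

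Of the 6 genes of chromosome structure, 5 were called lower at 250 nM on gel (6.9% of all genes) and 2 on plastic (4.48%). TOP2A, the DNA topoisomerase that untangles sister chromatids and a target of doxorubicin, had 75.4, 23.3 and 25.3 CPM on gel and 182, 75.1 and 49.9 CPM on plastic at 250 nM. At 100 nM TOP2A had 214, 134 and 91.7 CPM on gel and 252, 340.3 and 317 CPM on plastic. Replicate 1 was the highest of both groups at 250 nM, and the doses did not overlap on either substrate. TOP2A fell on gel, with a change of -1.81 ± 0.51 (SE, edgeR adjusted p = 0.0325), and on plastic the change was -1.56 ± 0.50 (SE, edgeR adjusted p = 0.0644). Gel against plastic gave -1.29 ± 0.51 (SE, edgeR adjusted p = 0.395) at 250 nM and, with groups that did not overlap, -1.05 ± 0.48 (SE, edgeR adjusted p = 0.503) at 100 nM. SMC4, a core subunit of condensin, had 12.2, 32.5 and 30.8 CPM on gel and 95.2, 47.9 and 31.4 CPM on plastic at 250 nM. At 100 nM SMC4 had 172, 124 and 78.1 CPM on gel and 127, 197 and 229.9 CPM on plastic. The doses did not overlap on either substrate, and the substrates overlapped at each dose. SMC4 fell on both, with -2.32 ± 0.45 (SE, edgeR adjusted p = 0.00797) on gel and -1.67 ± 0.43 (SE, edgeR adjusted p = 0.0321) on plastic. The SMC4 change for gel against plastic was -1.22 ± 0.45 (SE, edgeR adjusted p = 0.364) at 250 nM and -0.57 ± 0.41 (SE, edgeR adjusted p = 0.705) at 100 nM.

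The partner of SMC4 in condensin, SMC2, was called in neither dose comparison although the doses did not overlap, with 25.8, 74.3 and 62.8 CPM on gel at 250 nM against 78.9, 88.0 and 79.7 CPM on gel at 100 nM. NCAPG and NCAPH are subunits of condensin I, which enters the chromosomes once the nuclear envelope has broken down. NCAPG had 0, 1.94 and 2.11 CPM on gel and 19.9, 6.57 and 7.46 CPM on plastic at 250 nM. At 100 nM NCAPG had 37.9, 21.9 and 12.6 CPM on gel and 11.7, 41.5 and 46.2 CPM on plastic. The gel libraries at 250 nM lay below all others, and on plastic the doses overlapped. NCAPG had the largest fall of the called genes on gel, with a change of -4.25 ± 0.83 (SE, edgeR adjusted p = 0.00797), and on plastic the change was -1.54 ± 0.61 (SE, edgeR adjusted p = 0.131). Its gel libraries at 250 nM held 0, 4 and 5 counts, so the size of that fall is poorly fixed. NCAPH had 0.331, 2.43 and 0.421 CPM on gel and 2.897, 0.939 and 1.96 CPM on plastic at 250 nM. At 100 nM NCAPH had 9.796, 5.36 and 1.85 CPM on gel and 11.6, 12.9 and 16.8 CPM on plastic. The doses overlapped on gel and separated on plastic. NCAPH fell on both, with -2.50 ± 0.75 (SE, edgeR adjusted p = 0.0421) on gel and -2.79 ± 0.66 (SE, edgeR adjusted p = 0.0222) on plastic. With 1 library left out, the NCAPH call held in 3 of 12 fits on gel and in 8 of 12 on plastic. Its gel libraries at 250 nM held 1, 5 and 1 counts. MKI67 encodes Ki-67, which coats mitotic chromosomes and is the common stain for cycling cells. It had 6.28, 1.94 and 5.9 CPM on gel and 40.1, 9.86 and 10.2 CPM on plastic at 250 nM. At 100 nM MKI67 had 88.9, 39.2 and 24.8 CPM on gel and 44.6, 51.3 and 120 CPM on plastic. All 3 gel libraries at 250 nM lay below the other 9, and the doses separated on both substrates. MKI67 fell on gel, with a change of -3.38 ± 0.69 (SE, edgeR adjusted p = 0.00969), and on plastic the change was -1.84 ± 0.60 (SE, edgeR adjusted p = 0.07199).

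Cytokinesis, the physical division of the cell, was represented by 5 genes. Of these, 4 were called lower on gel (6.9% of all genes) and 4 on plastic (4.48%). ECT2, which switches on RhoA at the cell equator, was the exception, with 37.01, 39.8 and 34.98 CPM on gel and 63.3, 36.6 and 30.6 CPM on plastic at 250 nM. At 100 nM ECT2 had 67.7, 47.8 and 50.2 CPM on gel and 50.8, 72.2 and 67.3 CPM on plastic. The doses did not overlap on gel, but the change was small and not called, with a log2 change for 250 against 100 nM of -0.57 ± 0.26 (SE, edgeR adjusted p = 0.157) on gel and -0.54 ± 0.26 (SE, edgeR adjusted p = 0.207) on plastic. The ECT2 change for gel against plastic was -0.22 ± 0.27 (SE, edgeR adjusted p = 0.825) at 250 nM and -0.20 ± 0.25 (SE, edgeR adjusted p = 0.852) at 100 nM. ANLN, the actin-binding scaffold of the contractile ring, had 6.94, 7.28 and 5.48 CPM on gel and 31.9, 11.3 and 8.64 CPM on plastic at 250 nM. At 100 nM ANLN had 83.99, 51.96 and 26.8 CPM on gel and 67.9, 113 and 118 CPM on plastic. It was below all libraries at 100 nM in each of the gel libraries at 250 nM. ANLN fell on both, with -3.04 ± 0.52 (SE, edgeR adjusted p = 0.005099) on gel and -2.53 ± 0.47 (SE, edgeR adjusted p = 0.00938) on plastic. The ANLN change for gel against plastic was -1.39 ± 0.54 (SE, edgeR adjusted p = 0.392) at 250 nM, without overlap, and -0.88 ± 0.43 (SE, edgeR adjusted p = 0.522) at 100 nM.

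PRC1, which bundles the microtubules of the spindle midzone, had 9.25, 6.797 and 5.9 CPM on gel and 33.5, 12.7 and 9.43 CPM on plastic at 250 nM. At 100 nM PRC1 had 45.5, 38.2 and 18.7 CPM on gel and 50.8, 73.7 and 85.3 CPM on plastic. Gel lay below plastic without overlap at both doses, which held for no other of the 40 genes. How many of all tested genes do so was not counted. At 250 nM the gap was narrow, between 9.25 CPM (28 counts) in replicate 1 on gel and 9.43 CPM (24 counts) in replicate 3 on plastic. PRC1 was lower at 250 than at 100 nM, with log2 changes of -2.20 ± 0.47 (SE, edgeR adjusted p = 0.0113) on gel and -1.91 ± 0.43 (SE, edgeR adjusted p = 0.0185) on plastic. KIF23, the motor of the centralspindlin complex, had 11.9, 6.31 and 7.59 CPM on gel and 21.1, 18.8 and 9.82 CPM on plastic at 250 nM, against 31.9, 27.6 and 17.97 CPM on gel and 28.7, 47.6 and 69.7 CPM on plastic at 100 nM. KIF20A, a motor that brings the passenger complex to the midzone, had 1.32, 1.46 and 2.11 CPM on gel and 4.55, 2.35 and 1.57 CPM on plastic at 250 nM, against 7.98, 9.21 and 2.99 CPM on gel and 17.8, 21.8 and 24.7 CPM on plastic at 100 nM. The doses separated on both substrates for both motors, and at 100 nM KIF20A on gel lay wholly below plastic. KIF23 fell on both, with -1.56 ± 0.40 (SE, edgeR adjusted p = 0.0223) on gel and -1.56 ± 0.38 (SE, edgeR adjusted p = 0.0245) on plastic. KIF20A fell on both as well, with -2.04 ± 0.52 (SE, edgeR adjusted p = 0.0226) on gel and -2.91 ± 0.47 (SE, edgeR adjusted p = 0.00509) on plastic. Its gel libraries at 250 nM held 4, 3 and 5 counts.

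Partners of the anaphase-promoting complex were 2 genes, with none called lower on gel (6.9% of all genes) and 1 on plastic (4.48%). UBE2C, the ubiquitin-conjugating enzyme that works with that complex, had 16.5, 2.91 and 1.69 CPM on gel and 10.4, 8.92 and 3.14 CPM on plastic at 250 nM. At 100 nM UBE2C had 23.95, 24.1 and 6.702 CPM on gel and 40.8, 39.03 and 39.1 CPM on plastic. At 100 nM gel lay wholly below plastic, and at 250 nM replicate 1 on gel was above every plastic library. UBE2C fell on plastic, with a change of -2.42 ± 0.65 (SE, edgeR adjusted p = 0.0376), and the change on gel was -1.29 ± 0.65 (SE, edgeR adjusted p = 0.189). For gel against plastic it was 0.004397 ± 0.69 (SE, edgeR adjusted p = 1) at 250 nM and -1.12 ± 0.58 (SE, edgeR adjusted p = 0.544) at 100 nM. CDC20, which brings the complex its targets, had 2.97, 2.43 and 0.421 CPM on gel and 8.69, 1.88 and 0.785 CPM on plastic at 250 nM. At 100 nM CDC20 had 9.25, 4.81 and 3.14 CPM on gel and 15.8, 8.36 and 12.4 CPM on plastic. None of its changes was called, at -1.51 ± 0.76 (SE, edgeR adjusted p = 0.189) on gel and -1.67 ± 0.69 (SE, edgeR adjusted p = 0.142) on plastic for 250 against 100 nM. Between substrates, gel against plastic, CDC20 gave -0.93 ± 0.82 (SE, edgeR adjusted p = 0.751) at 250 nM and -1.09 ± 0.62 (SE, edgeR adjusted p = 0.592) at 100 nM.

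The transcription factors FOXM1 and MYBL2, which switch on the other genes in cycling cells, were low and uneven, and neither was called in any comparison. FOXM1 had 9.91, 0.971 and 3.37 CPM on gel and 8.69, 3.29 and 2.75 CPM on plastic at 250 nM, against 7.801, 3.02 and 2.71 CPM on gel and 4.14, 9.14 and 8.08 CPM on plastic at 100 nM. MYBL2 had 7.601, 0 and 0.421 CPM on gel and 2.897, 1.41 and 0.393 CPM on plastic at 250 nM, against 3.45, 1.51 and 0.713 CPM on gel and 4.003, 4.96 and 7.6 CPM on plastic at 100 nM. Replicate 1 on gel at 250 nM, the library that stands apart, had the highest FOXM1 of the 12 and a MYBL2 level matched only by replicate 3 on plastic at 100 nM. For 250 against 100 nM FOXM1 gave 0.15 ± 0.68 (SE, edgeR adjusted p = 0.904) on gel and -0.53 ± 0.68 (SE, edgeR adjusted p = 0.674) on plastic, and MYBL2 gave 0.63 ± 0.97 (SE, edgeR adjusted p = 0.696) on gel and -1.80 ± 1.02 (SE, edgeR adjusted p = 0.283) on plastic. For gel against plastic FOXM1 gave 0.0102 ± 0.71 (SE, edgeR adjusted p = 1) at 250 nM and -0.67 ± 0.64 (SE, edgeR adjusted p = 0.789) at 100 nM. MYBL2 gave 0.87 ± 1.09 (SE, edgeR adjusted p = 0.833) at 250 nM and -1.56 ± 0.91 (SE, edgeR adjusted p = 0.603) at 100 nM. Without that library and without replicate 1 on plastic at 100 nM, the change for 250 against 100 nM on gel turned to -1.01 for FOXM1 and to -2.92 for MYBL2.

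Direction was least secure for gel against plastic at 250 nM, where the sign turned under at least 1 alternative in 8 of the 16 most abundant genes by role: CCNB1, CCNA2, AURKA, ECT2, CDC20, UBE2C, FOXM1 and MYBL2. In the other comparisons it turned for AURKA in each, for FOXM1 and MYBL2 between doses on gel and between substrates over both doses, and for no other of the 16.

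Replicates of a group differed in these genes together. In replicate 1 on gel at 100 nM 35 of the 40 genes were at their highest of the 3 (40% of all tested genes were), and in replicate 3 of that group 38 were at their lowest (28.5% of all genes). On plastic at 100 nM, replicate 1 was the lowest in 35 (36.8% of all genes). On plastic at 250 nM, replicate 1 was the highest in 38 (38.2% of all genes), and it exceeded replicate 3 on gel at 100 nM, the lowest library at the lower dose, in 38 of 40 genes. Within each group the 3 libraries ranked alike by the summed CPM of 36 S-phase genes such as PCNA and the MCM helicase genes, with 345, 295 and 299 CPM on gel and 579, 386 and 359 CPM on plastic at 250 nM, and 542, 449 and 326 CPM on gel and 578, 690 and 732 CPM on plastic at 100 nM. CDKN1A, the p53-driven inhibitor of cyclin-dependent kinases, ran the other way at 100 nM, with 479, 664 and 788 CPM on gel and 597, 493 and 421 CPM on plastic. At 250 nM it did not on either substrate, and replicate 1 was highest for CDKN1A too: 1299, 1129 and 1219 CPM were measured on gel and 797, 543 and 625 CPM on plastic.

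Covariation was put in figures by taking each group's mean from log2 CPM and correlating the genes pairwise over the 12 libraries. Over the 780 pairs of the 40 genes the median Pearson correlation was 0.651, and 92.7% of pairs were above 0, against a median of 0.00111 and 50.1% over all pairs of tested genes. The points share 12 libraries in groups of 3, so these are descriptions with no p-value. Within the 6 libraries at 250 nM the median was 0.610, and within the 6 at 100 nM it was 0.851. It was 0.782 without replicate 1 on gel at 250 nM and 0.506 without replicate 1 on plastic at 250 nM, the highest and the lowest of the 12 values with 1 library left out. Against the mean of the other 39 genes, PRC1 had the highest correlation, 0.987, followed by PLK1 at 0.978, ANLN at 0.950 and TPX2 at 0.949, and 32 of 40 were above 0.7. The lowest were SMC2 at -0.34, KNL1 at 0.330 and AURKA at 0.333; without replicate 1 on gel at 250 nM KNL1 reached 0.926, while SMC2 stayed at -0.19 and AURKA at 0.335.

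**Figure D4:**
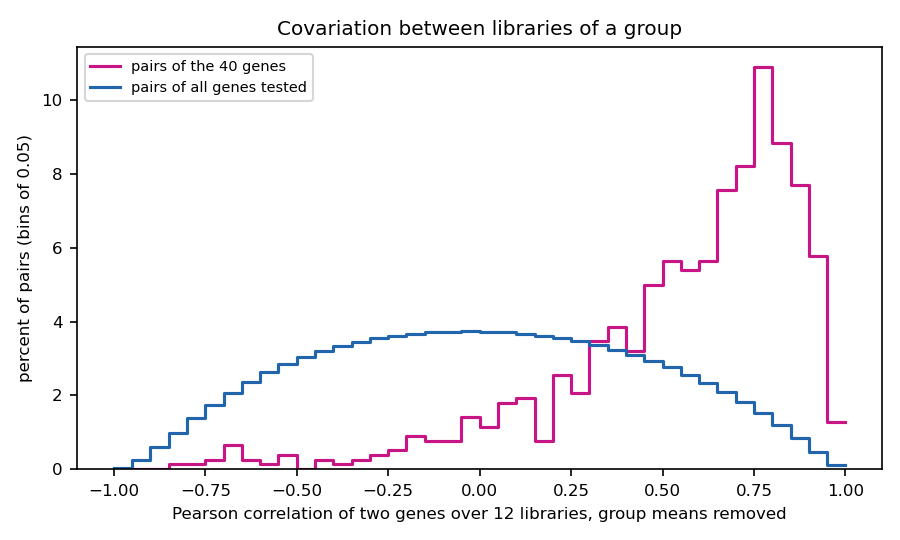
Distribution of Pearson correlations between pairs of genes over the 12 libraries after group means were removed, as percent of pairs in bins of 0.05, for the 780 pairs of the 40 genes and for all pairs of tested genes. The pairs of the 40 genes peak between 0.75 and 0.8 with a median of 0.651, while all pairs spread evenly about 0.

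In replicate 1 on gel at 250 nM the 40 genes did not all move together. Against the mean of replicates 2 and 3, 27 genes were above, 12 below and 1, CENPA, had no count in any of them. Other libraries also split when set against their partners. Genes above numbered 13 in replicate 2 and 15 in replicate 3 of that group, whose partners include replicate 1. They numbered 23 in replicate 2 on gel and 28 in replicate 2 on plastic at 100 nM. The covariation median was 0.715 without replicate 2 and 0.710 without replicate 3 on gel at 250 nM. For replicate 1 on gel at 250 nM the log2 difference was highest for MYBL2 (3.71), NUSAP1 (3.52) and KIF2C (3.33). It was lowest for NCAPG (-2.49) and KNL1 (-2.83). These extremes rest on few counts, such as 23, 0 and 1 in replicates 1 to 3 for MYBL2. NUSAP1 had 26, 2 and 0 counts and KIF2C 25, 0 and 3. NCAPG had 0, 4 and 5 counts and KNL1 0, 7 and 5, so the sizes are poorly fixed. The genes above had a median GC content of 44.4% and a median longest transcript of 2797 bases, and those below 38.6% and 5066 bases. Over the 40 genes the rank correlation of the difference was -0.56 with transcript length and 0.386 with GC content, against -0.15 and 0.284 over the 12227 tested genes with a transcript sequence. In replicate 1 on plastic at 250 nM, where 38 genes were above the mean of replicates 2 and 3, the same rank correlations were 0.105 and 0.011. In the other 10 libraries, each set against its partners, they ran from -0.32 to 0.658 with length and from -0.44 to 0.257 with GC content, the highest with length in replicate 3 on gel at 250 nM, whose partners include replicate 1. The part of length and of GC content in the levels of this gel library was not tested.

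**Figure D5:**
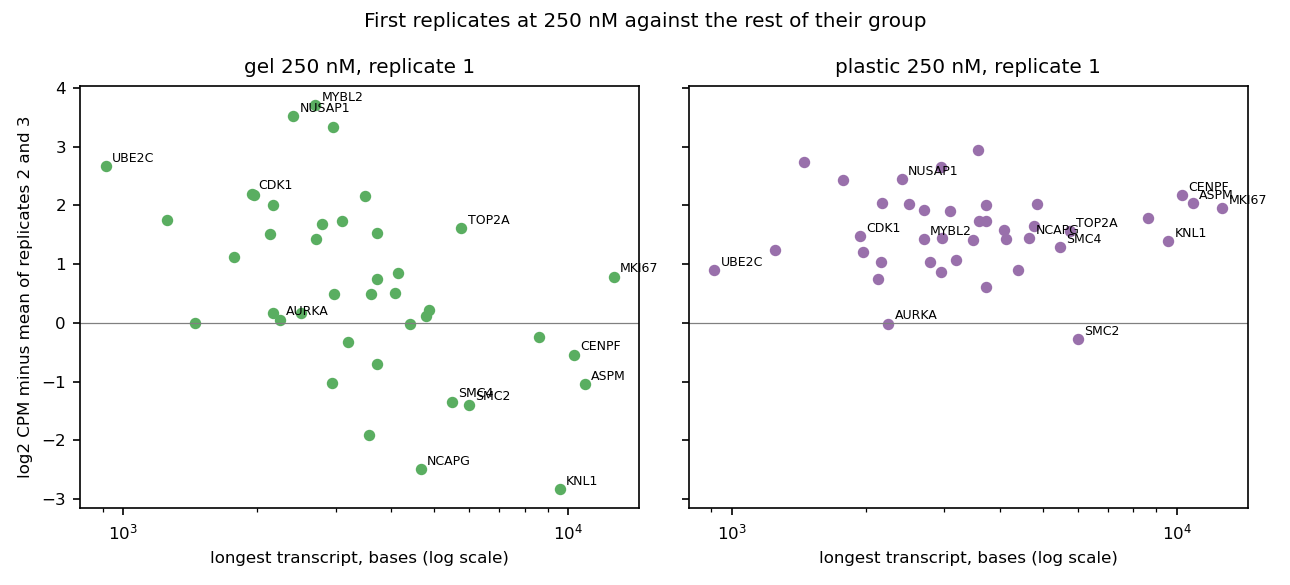
Log2 CPM of each of the 40 genes in replicate 1 minus the mean of replicates 2 and 3, against the length of the longest annotated transcript (log axis), for gel at 250 nM on the left and plastic at 250 nM on the right. On gel the short transcripts UBE2C and NUSAP1 lie high and the long transcripts KNL1 and ASPM low (rank correlation -0.56). Exceptions are MKI67, the longest at 12678 bases, at 0.79, TOP2A (5758 bases) at 1.62 and the shorter NCAPH (2952 bases) at -1.03. On plastic nearly all points lie above 0 at every length.

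Of 80 further mitosis genes 77 were tested; for 250 against 100 nM 22 were called lower on gel (28.6%, against 6.9% of all genes) and 20 on plastic (26.0%, against 4.48%), 12 of them on both, and the median changes were -1.03 and -1.38. Those called on both included CEP55, CKAP2, KIF18A, KIF20B, MELK, SGO2 and HMGB2, the last a chromatin protein lost in senescent cells, with changes of -1.71 on gel and -1.93 on plastic. The most abundant of the 77 were STMN1 (stathmin, a tubulin-binding protein) at a mean of 531 CPM, TUBB4B, a beta-tubulin, at 169 CPM, and the checkpoint gene BUB3 at 169 CPM. STMN1 and TUBB4B were the 2 called higher on gel, with changes of 0.61 and 0.57. For gel against plastic, none of the 77 was called, and the medians were -0.47 at 250 nM and -0.66 at 100 nM. LMNB1, the nuclear lamin that senescent cells lose, had 9.91, 0.971 and 3.37 CPM on gel and 9.93, 3.29 and 1.18 CPM on plastic at 250 nM, against 20.1, 21.7 and 7.70 CPM on gel and 78.3, 37.3 and 45.8 CPM on plastic at 100 nM. It was lower at 250 than at 100 nM on plastic, with a change of -3.48 ± 0.68 (SE, edgeR adjusted p = 0.0109). Its change on gel was -1.70 ± 0.67 (SE, edgeR adjusted p = 0.103).

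Of 36 S-phase genes 33 were tested, and for 250 against 100 nM 2 were called lower on gel (MCM4 and PRIM1, 6.06% against 6.9% of all genes) and 3 on plastic (MCM2, ORC6 and PCNA, 9.09% against 4.48%), with medians of -0.83 and -0.93. RRM1 and PCNA were the most abundant, at means of 105.0 and 59.3 CPM. Gel against plastic gave the S-phase genes medians of -0.54 at 250 nM and -0.69 at 100 nM, with none called. Of the anaphase-promoting complex, the 15 tested subunits and enzymes had medians of -0.05 for dose on gel and -0.23 on plastic, with ANAPC7 higher on both and UBE2S lower on plastic. ANAPC5, CDC27 and ANAPC13 led this complex, at means of 123, 95.1 and 90.3 CPM. The 12 cohesin genes, with 3 called lower on gel (25%, against 6.9% of all genes) and 0 on plastic, had medians of -0.73 on gel and -0.34 on plastic, and RAD21, SMC3 and STAG2 led them at 125, 112 and 106 CPM. Of cohesin, PDS5B, STAG1 and RAD21 were lower on gel, where replicate 1 at 250 nM had a summed level of 368 CPM for the 12 genes against 765 and 718 CPM in its partners, and the loader gene MAU2 was higher on both.

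Of 21 genes for DREAM, pocket proteins and CDK inhibitors, all tested, CDKN1A rose at 250 against 100 nM on gel, with a change of 0.92 ± 0.22 (SE, edgeR adjusted p = 0.0184), and on plastic it was 0.38 ± 0.22 (SE, edgeR adjusted p = 0.301). RB1, the retinoblastoma gene, was lower at the higher dose on both, with -1.40 ± 0.28 (SE, edgeR adjusted p = 0.00859) on gel and -1.77 ± 0.28 (SE, edgeR adjusted p = 0.00509) on plastic. RBL1, which encodes p107, was lower too, with -2.47 ± 0.59 (SE, edgeR adjusted p = 0.0181) on gel and -1.95 ± 0.54 (SE, edgeR adjusted p = 0.0428) on plastic. LIN54, the MuvB subunit that binds the CHR, was called lower on gel, with -2.27 ± 0.46 (SE, edgeR adjusted p = 0.00911), and LIN37, another MuvB subunit, higher on plastic, with 2.001 ± 0.36 (SE, edgeR adjusted p = 0.00819). After CDKN1A, MYBL1 and TFDP1 were the most abundant, at means of 137 and 50.8 CPM. None of the 21 was called for gel against plastic at either dose.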

How the data were processed

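Gene tables of 12 libraries were used, 3 for each of 4 groups. Per the submitters' processing notes, Trimmomatic, STAR, RSEM, DESeq2 1.36.0 and the build GRCh38 were used. Their other versions, annotation and strandedness, and whether molecular identifiers were used to collapse reads, are not stated there. The expected count of each gene was deposited as an RSEM estimate, per the file headers, and the TPM beside it was scaled by RSEM for length and depth before it was deposited.

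Symbols and positions came from GENCODE 29 and promoters from RefSeq. Expected counts were rounded and fitted in R 4.3.3 with edgeR 4.0.16, using filterByExpr over the 4 groups, TMM and a quasi-likelihood model of 1 mean per group with 8 residual degrees of freedom. P-values were adjusted by Benjamini-Hochberg over the 12329 tested genes of a comparison and called under 0.05, and the common biological coefficient of variation was 0.299. Log2 CPM for correlations had a prior count of 2. A count of 0 was bounded at 3 counts over the group, which covers counting error only. The test and the correlations were tried on simulated data.

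Alternatives were RLE factors, no filter, DESeq2 1.42.0, limma 3.58.1 on log2(TPM + 1) and log2(TPM + 0.1), the replicate block, leaving out each library, only the 6 libraries compared, thinning to 2229060 counts and leaving out ribosomal DNA and mitochondrial genes. A robust prior and leaving out the 2 libraries low in ribosomal DNA were added after the data were seen. The 40 genes, their roles and the other lists were chosen with earlier results of these data known. Per-library values are given for the 2 genes of highest mean CPM in each role and for any called member, and other lists are given by counts with their called genes named in part. Some genes of the other lists are not reported here.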

Additional observations from a re-analysis of the deposited data

How the results depend on the processing

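The count of the 40 genes called moved with the filter and the tool. Without a filter, gel against plastic called 13 at 250 nM, 7 at 100 nM and 25 over both doses, the difference between doses called 1, and 250 against 100 nM on plastic called 34. Over all tested genes, no filter gave 231 calls at 250 nM, 335 at 100 nM and 573 over both doses for gel against plastic, 129 for the difference between doses and 1451 on plastic between doses, against 1, 28, 93, 0 and 1050 with the filter. DESeq2 gave 93, 158, 385, 0 and 1667, and limma on log2(TPM + 1) 3, 7, 53, 0 and 701. For dose on gel over all genes, edgeR called 1703, DESeq2 2404 and edgeR with only the 6 libraries 525. With 1 library left out the calls over all genes ran from 1 to 2, 3 to 100, 37 to 237, 676 to 1843 and 95 to 2202 for gel at 250 nM, gel at 100 nM, gel over both doses, dose on gel and dose on plastic. Of the 40 genes, DESeq2 called 2 at 250 nM, 1 at 100 nM and 8 over both doses for gel against plastic. Other moves, with calls over all genes in brackets, were 1 over both doses with the replicate block (105). Without both libraries low in ribosomal DNA, 2 were called over both doses (201) and 31 for dose on plastic (2101). Dose on gel called 15 with only the 6 libraries compared (525), and dose on plastic 9 with limma on log2(TPM + 0.1) (594). The cause of these moves was not tested. Correlations of same-numbered deviations ran from -0.24 to 0.14. They were not set beside those of differently numbered samples, so they cannot show whether the replicate numbers pair the samples. The block result is given in this section alone.

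With 1 library left out, the count ran from 0 to 1 for gel over both doses, from 10 to 26 for dose on gel and from 1 to 33 for dose on plastic. The median change of the 40 genes ran from -1.57 to -0.20 for gel at 250 nM, from -1.21 to -0.59 for gel over both doses and from -2.87 to -1.61 for dose on plastic, and the covariation median from 0.506 to 0.782. Under these alternatives the other counts of the 40 genes stayed within 1.5 times the reported count.

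Of 2509 single-gene values under alternatives, 2192 kept direction and side of the threshold, 191 lost the call, 75 gained it and 51 changed sign, all 51 in genes not called in the comparison concerned. For gel against plastic at 100 nM AURKA reached 0.000617 with limma on log2(TPM + 0.1). At 250 nM AURKA turned to -0.05 with limma at both pseudocounts (-0.0517 and -0.0549). UBE2C turned to -0.0209 without a filter, -0.0243 with DESeq2, -0.36 and -0.45 with limma on log2(TPM + 1) and log2(TPM + 0.1), -0.15 with the replicate block, -0.0744 when thinned and -1.72 without both low libraries. FOXM1 turned to -0.0114 without a filter, -0.16 and -0.40 with limma, -0.081 with the replicate block and -1.16 without both low libraries, and MYBL2 to -0.41 with limma on log2(TPM + 0.1) and -2.67 without both. Over both doses AURKA turned to 0.0276 when thinned. For dose on gel AURKA turned to -0.37 and -0.39 with limma, FOXM1 to -0.082 and -0.30 with limma and -1.01 without both low libraries, and MYBL2 to -0.71 with limma on log2(TPM + 0.1), -0.31 when thinned and -2.92 without both.

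Leaving out 1 library, gel against plastic at 250 nM ran from -1.24 to 0.32 for CCNB1, from -1.02 to 0.28 for CCNA2, from -0.44 to 0.14 for ECT2, from -1.47 to 0.58 for CDC20, from -1.71 to 0.43 for UBE2C, from -1.15 to 0.69 for FOXM1 and from -2.67 to 1.67 for MYBL2. At 100 nM AURKA ran from -0.50 to 0.0266. Over both doses AURKA ran from -0.19 to 0.0753, FOXM1 from -0.91 to 0.0086 and MYBL2 from -2.11 to 0.0511. For dose on gel FOXM1 ran from -1.01 to 0.80 and MYBL2 from -2.92 to 1.37, and for dose on plastic AURKA ran from -0.49 to 0.0543. Depth limits the 250 nM libraries most, where 18 of the 40 genes would not pass the filter alone.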
